A study of Mus musculus with 2 samples.

Results

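Oxidative phosphorylation genes were examined in naive CD8+ T cells that lack the transcription factor Bcl11b and in their wild-type counterparts. The set holds the genes whose name on the array begins as those of NADH dehydrogenase (Nduf), succinate dehydrogenase (Sdh), the cytochrome bc1 complex (Uqcr), cytochrome c oxidase (Cox4 to Cox8 subunits with a lettered form) or ATP synthase (Atp5). That rule uses names only and found 77 genes, represented by 105 of 41174 gene probes, among 27745 gene names. Of these, 73 genes were measured, among 9283 genes in all, meaning that at least 1 probe was well above background in the same genotype on both arrays.

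The respiratory chain sits in the inner mitochondrial membrane. Complexes I and II pass electrons from NADH and succinate to ubiquinone, complex III passes them on to cytochrome c, and complex IV passes them to oxygen. Complexes I, III and IV pump protons, and complex V, the ATP synthase, uses the returning protons to make ATP. Most subunits are encoded in the nucleus and a few in mitochondrial DNA. Naive T cells are known to rest largely on oxidative metabolism, and the nuclear factors NRF1, GABP (a protein of the ETS family) and YY1 are known activators of many of these genes.

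The knockout cells came from Bcl11bF/F/dLck-iCre mice, in which an iCre recombinase under the distal Lck promoter removes floxed Bcl11b late in T cell development. The other cells came from wild type mice, and both were of the C57BL/6 background. The labels describe naive cells with low CD44 and low CD25, sorted to over 90% purity, and give neither the ages nor the number of mice behind a sample. They do not say that the wild-type mice carried floxed alleles or the recombinase, so a recombinase effect cannot be told apart from the loss of Bcl11b. Each of 2 arrays, called biological replicates 1 and 2, carried a knockout sample labelled with Cy5 and a wild-type sample labelled with Cy3. Values are log2 ratios of knockout over wild type, so 1 is a 2-fold higher signal in the knockout. Both arrays had the same dye orientation, and a dye effect cannot be told apart from a genotype effect. These are bulk samples, so fewer cells of a type and less RNA per cell cannot be told apart.

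The promoters of 5 members are shown because these genes had the highest and the lowest mean ratio of complexes I and III and the highest of complex V. Each runs from 250 bases before to 50 bases after the transcription start in RefSeq's table for GRCm38.p6, 5′ to 3′ on the gene's strand. Capitals mark exact matches to the letters searched on both strands, which were GCGCANGCG (from the NRF1 motif), CCGGAAG (an ETS motif) and AAGATGGC (a YY1 motif). Ndufa4, at chr6:11907401-11907700 on the minus strand, held no match. Ndufa11, at chr17:56717512-56717811 on the plus strand, held 1 NRF1 match. Uqcrh, at chr4:116075021-116075320 on the minus strand, held 1 ETS match. Uqcrc1, at chr9:108936398-108936697 on the plus strand, held 2 places that match NRF1. Atp5f1, at chr3:105959214-105959513 on the minus strand, held 1 YY1 match.
Ndufa4: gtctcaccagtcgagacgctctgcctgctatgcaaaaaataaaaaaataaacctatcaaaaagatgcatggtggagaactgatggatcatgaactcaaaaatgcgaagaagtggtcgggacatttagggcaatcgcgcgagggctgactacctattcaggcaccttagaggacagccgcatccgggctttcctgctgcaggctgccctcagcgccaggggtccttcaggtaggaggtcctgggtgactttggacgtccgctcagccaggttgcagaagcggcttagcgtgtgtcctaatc
Ndufa11: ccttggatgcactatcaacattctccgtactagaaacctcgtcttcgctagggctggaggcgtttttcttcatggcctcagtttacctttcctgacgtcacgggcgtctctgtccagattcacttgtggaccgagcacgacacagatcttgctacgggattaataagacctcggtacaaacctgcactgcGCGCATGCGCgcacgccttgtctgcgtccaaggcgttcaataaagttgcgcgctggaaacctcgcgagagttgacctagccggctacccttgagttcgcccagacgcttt
Uqcrh: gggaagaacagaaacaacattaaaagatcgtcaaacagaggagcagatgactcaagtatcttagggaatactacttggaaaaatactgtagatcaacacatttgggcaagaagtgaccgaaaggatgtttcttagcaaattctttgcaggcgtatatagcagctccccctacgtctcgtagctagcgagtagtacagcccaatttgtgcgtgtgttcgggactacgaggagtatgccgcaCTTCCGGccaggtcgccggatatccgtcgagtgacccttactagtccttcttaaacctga
Uqcrc1: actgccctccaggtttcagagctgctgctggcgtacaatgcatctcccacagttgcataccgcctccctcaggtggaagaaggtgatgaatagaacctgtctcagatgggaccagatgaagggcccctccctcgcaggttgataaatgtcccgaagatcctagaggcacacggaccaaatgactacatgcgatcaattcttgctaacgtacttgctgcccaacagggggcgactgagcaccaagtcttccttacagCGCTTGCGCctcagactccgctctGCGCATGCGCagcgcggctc
Atp5f1: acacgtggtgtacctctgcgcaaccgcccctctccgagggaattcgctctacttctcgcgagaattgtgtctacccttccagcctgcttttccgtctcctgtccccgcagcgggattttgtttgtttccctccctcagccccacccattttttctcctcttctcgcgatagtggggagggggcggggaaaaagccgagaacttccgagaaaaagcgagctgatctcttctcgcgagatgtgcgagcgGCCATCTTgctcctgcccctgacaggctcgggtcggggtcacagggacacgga

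Such matches were common in the set. The table held 70 promoters for 65 of the 77 genes, and 12 genes had no entry. The NRF1 letters were present in 21 of the 70 (30.0%), against 6.25% of 32851 promoters of the same length. The ETS motif was present in 16 (22.9%, against 8.86%) and the YY1 motif in 10 (14.3%, against 2.75%). No member promoter had matches to different motifs that overlapped. Measured genes with a match to any of these motifs (38 genes) had a median mean ratio of 0.12, and those with a promoter entry and no match (24 genes) had 0.15. By single motif, the medians with and without a match were 0.13 and 0.12 for NRF1, 0.11 and 0.16 for ETS, and 0.23 and 0.12 for YY1, with no test made. Among the promoters printed above, matches stood both in those of genes with a high mean ratio (Uqcrh, Atp5f1) and in those of genes with a low one (Ndufa11, Uqcrc1). A match is a run of letters and does not show that a factor binds there.

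Among all genes, the arrays differed in spread, and array 1 had the wider ratios, with an SD over genes of 1.01 against 0.41 on array 2. Bcl11b had ratios of -1.45 and -1.73 with its brighter probe and -0.35 and -2.32 with a second probe. The probes were not placed against the floxed exon, so they do not check the deletion. The T cell markers had summed signals over 10 genes of 580727 and 469918 in the knockout and 490617 and 408238 in wild type, and 5 of the 10 had an unadjusted p under 0.05. On both arrays, 5 of the 10 were above 0 and 3 were below 0. Cd28, whose wild-type signal passed the background threshold on neither array, was called higher, while Cd5 (-0.69, -1.80) and Cd6 (-0.58, -1.79) were below 0 on both arrays and not called. Of the markers of natural killer (NK) cells, 3 of 6 measured passed the test, all higher in the knockout. Their summed signals were 21751 and 89210 in the knockout against 7121 and 9251 in wild type. Of the myeloid markers 5 of 8 passed, all higher, with summed signals of 15231 and 20162 against 4103 and 4884. In wild type, 6 of these 8 (C1qa, C1qb, C1qc, Csf1r, Emr1 and Fcgr3) and 2 of the 6 NK markers (Fcer1g and Klra8) passed the background threshold on neither array, so the wild-type sums lie partly at the floor. Klri2, Cd68 and Itgam of these lists were not well above background. B cell markers had 0 of 3 called by limma (1 at an unadjusted p of 0.05), with summed signals of 7310 and 5714 against 6635 and 5218. Of the erythroid markers 1 of 2 was called higher, with summed signals of 3101 and 4769 against 1217 and 5096. The wild-type signal of the called marker on array 1 was not well above background, so its ratio there is not exact. Cd4, the only measured marker of the CD4 and regulatory T cell list, was not called, and Ctla4, Foxp3 and Il2ra were not above background. The part of these other cells in the ratios of the respiratory chain genes was not tested.

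No gene of the respiratory chain or ATP synthase passed the test in either direction. The count was 0 of 73, against 258 of 9283 genes (2.78%) at an adjusted p of 0.05 by limma with Benjamini-Hochberg adjustment, of which 221 (2.38%) had a higher and 37 (0.399%) a lower signal in the knockout. At an unadjusted p of 0.05, 1 member had passed, Ndufa4, which is counted under complex I by its name, against 1210 of all genes (13.0%). The lowest adjusted p among members was 0.286 and the highest 0.996. The members were bright: 71 of the 73 were well above background in both channels on both arrays. With that required of every gene, only 38 of 6198 genes were called. The shares of all genes given here and below include genes with a dim channel. No member was called under any of 11 other processing settings either, where the lowest adjusted p of a member lay between 0.101 and 0.638 and between 0 and 23 members had an unadjusted p under 0.05. The same settings called between 0 and 275 of all genes. The test used nearly one standard error for all genes (0.44 on the log2 scale), so a member's 95% interval reached 0.87 to each side of its mean, a factor of 1.83. A mean ratio had to reach 1.42 in size to be called. Differences smaller than that in single members were not detectable with 2 arrays, and the missing calls do not show that levels were equal.

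The members as a set lay slightly above 0. Their median mean ratio was 0.12, against 0.04 over all genes, with 0.06 on array 1 (0.05 over all genes) and 0.18 on array 2 (-0.01 over all genes). On array 2, 54 of the 73 were above 0, against 48.2% of all genes, and on array 1 40 were, against 52.0%. On both arrays 30 members (41.1%) were above 0, against 31.0% of all genes, and 9 (12.3%) were below 0, against 30.8%. The other 34 had opposite signs, against 38.2% of all genes, and 24 of these were lower on array 1 and higher on array 2. The count above 0 on both arrays depended on the setting. Without background subtraction it was 22, and 9 were below 0 on both. The median of the members was then -0.02 on array 1 and 0.15 on array 2. Across members the ratios of the arrays were unrelated (Pearson r = -0.003, Spearman rho = 0.008, over 73 genes that share the same libraries), whereas over all genes r was 0.29. The arrays therefore ordered the members differently, even though most were above 0 on array 2.

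Sizes were modest. No member was over 2-fold higher on both arrays (1.12% of all genes were) and none was over 2-fold lower on both (0.237%). On array 1, 6 members were over 2-fold higher, against 21.2% of all genes, and 2 were over 2-fold lower, against 5.90%. The high ones were Ndufa4, Ndufa5, Ndufc2, Uqcrb, Cox7b and Atp5f1, and the low ones were Ndufa11 and Uqcrc1. On array 2 no member was over 2-fold in either direction, against 2.84%. The SD over members was 0.61 on array 1 and 0.27 on array 2, narrower on each than over all genes. The zero point depends on the scaling: when the arrays were only centred on their medians, with no loess curve, the median of all genes moved to 0.69 and that of the members to 1.07. Under that setting the members stood 0.39 above all genes, against 0.09 in the values reported here, 67 members were above 0 on both arrays and 7 were over 2-fold higher on both.

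**Figure D1:**
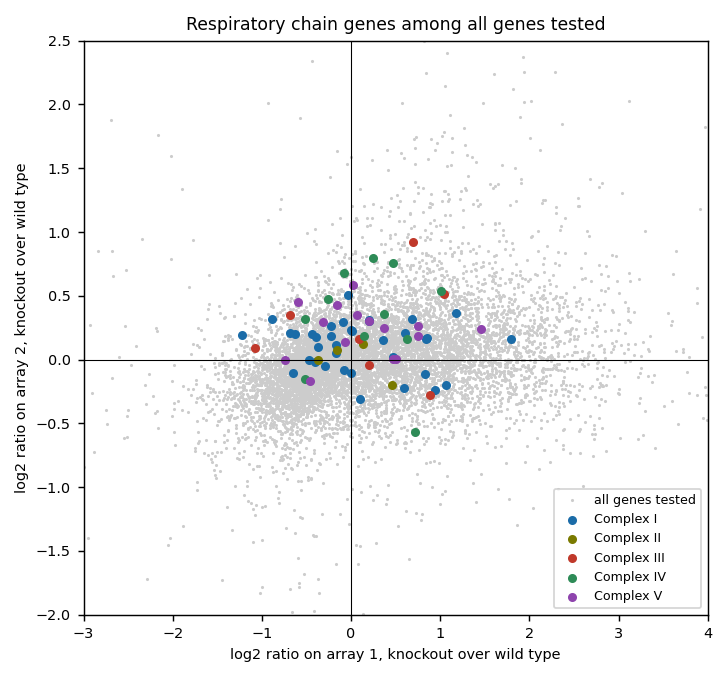
Log2 ratio of knockout over wild type on array 1 (horizontal) and array 2 (vertical) for all 9283 genes tested (grey) and for the 73 measured members, coloured by complex. 64 genes lie outside the plotted range. Most coloured points lie above the horizontal line at 0, as 54 of 73 members were above 0 on array 2, and they spread to both sides of the vertical line.

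Complex I, the NADH dehydrogenase, was the largest group with 36 measured genes. Genes were grouped by name, so these include Ndufa12l and also Ndufa4, which is not counted under complex IV (both described below). Its median mean ratio was 0.06 (-0.06 without background subtraction), with -0.02 on array 1 and 0.17 on array 2. There were 11 genes above 0 on both arrays, 5 below 0 on both and 20 with opposite signs. The ratios spread most on array 1, where they ran from -1.23 to 1.79, and on array 2 they stayed between -0.31 and 0.51.

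Ndufa4 had the highest mean ratio of all members. It was first described as a complex I subunit and is now assigned to cytochrome c oxidase. Its ratio was 1.79 on array 1 and 0.16 on array 2. The normalised log2 signal was 15.12 and 14.44 in the knockout and 13.33 and 14.28 in wild type, so the wild-type signal of array 1 was the lowest of the 4 and the genotypes did not overlap. The mean of 0.97 ± 1.15 (SD, n = 2) had a 95% interval from 0.11 to 1.84 and an adjusted p of 0.286 (limma, Benjamini-Hochberg). Its probe is placed by the array design at mm8 chr6:11850423-11850482 on the minus strand.

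Ndufa5, an accessory subunit of the peripheral arm, had 1.18 on array 1 and 0.36 on array 2. Its log2 signals were 14.37 and 13.92 in the knockout and 13.19 and 13.56 in wild type, without overlap. The mean of 0.77 ± 0.58 (SD, n = 2) had an adjusted p of 0.480 (limma). The accessory subunit Ndufc1 had 0.68 and 0.32, Ndufs5 had 0.60 and 0.21, and Ndufs6 had 0.21 and 0.30. For these genes, both arrays gave a higher signal in the knockout. Ndufs4, an accessory subunit whose loss is known from Leigh syndrome models, had 0.84 and 0.16. Ndufa12l, which RefSeq now names Ndufaf2 and which is known as an assembly factor of complex I, had 0.85 and 0.17. By contrast, the accessory subunit Ndufc2 had 1.06 on array 1 and -0.20 on array 2.

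At the other end, the accessory subunit Ndufa11 had the lowest mean ratio of all members, from -1.23 on array 1 and 0.19 on array 2. Its log2 signals were 10.20 and 10.46 in the knockout and 11.43 and 10.27 in wild type, so the genotypes overlapped and only the wild-type sample of array 1 stood high. The mean of -0.52 ± 1.00 (SD, n = 2) had an adjusted p of 0.716 (limma). A second, overlapping probe gave -1.19 and -0.05, so both probes were far below 0 on array 1 only. Ndufv1, the subunit that carries the NADH-binding flavin, had -0.65 and -0.10. Ndufb9 (-0.40, -0.02), Ndufs3 (-0.08, -0.08) and Ndufa7 (-0.47, -0.003) were also below 0 on both arrays.

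The subunits that carry the redox centres or belong to the conserved core differed in position from the accessory ones. Of 7 measured core genes, none was above 0 on both arrays and 3 were below 0 on both. Their medians were -0.29 on array 1 and -0.08 on array 2, where they ran from -0.24 to 0.20. The 29 other genes named Nduf had medians of 0.00 and 0.18, and 11 of them were above 0 on both arrays. Ndufs1, the largest core subunit, had 0.94 on array 1 and -0.24 on array 2, and Ndufv2 had 0.59 and -0.23. These groups of subunits were formed after the values were seen, and no test was made between them. Relative to the median of all genes, the median mean ratio of the core genes was at -0.16. With median centring it was at 0.09, so the sign turned.

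Complex II, the succinate dehydrogenase, is the only complex made entirely of nuclear-encoded subunits. All 4 genes were measured and lay close to 0, with a median mean ratio of 0.04. Sdha, the flavoprotein that oxidises succinate, had 0.46 and -0.20, and its second probe gave the same signs. Sdhb, the iron-sulphur subunit, had -0.37 and -0.001. The membrane anchors Sdhc, at 0.13 and 0.12, and Sdhd, at -0.15 and 0.07, lay near 0 on both arrays.

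Complex III had 7 measured genes and a median mean ratio of 0.12. Its small subunits held the high values. Uqcrh, the hinge protein next to cytochrome c1, had 0.69 on array 1 and 0.92 on array 2, the highest value of any member on array 2. Its log2 signals were 16.73 and 16.40 in the knockout and 16.04 and 15.48 in wild type, without overlap. The mean of 0.81 ± 0.16 (SD, n = 2) had a 95% interval from -0.06 to 1.67 and an adjusted p of 0.447 (limma). The brighter probe is placed at mm8 chr4:115564971-115565030. A second probe at chr4:115567819-115567878 gave -0.36 and 0.51, so on array 1 the probes disagreed in sign.

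Uqcrb, the ubiquinone-binding subunit, had 1.04 and 0.51. Its signals were 11.94 and 12.45 in the knockout and 10.90 and 11.94 in wild type, so the higher wild-type signal lay barely under the lower knockout signal. The mean of 0.78 ± 0.37 (SD, n = 2) had an adjusted p of 0.474 (limma). Uqcrq had 0.09 and 0.16. The array name Uqcr, now Uqcr11, had -0.69 and 0.35. The core proteins went opposite ways on array 1: Uqcrc1 had -1.08 and 0.09, and Uqcrc2 had 0.88 and -0.28. Uqcrc1 had signals of 14.81 and 14.60 in the knockout and 15.89 and 14.51 in wild type, which overlapped, and a second probe gave -0.61 and 0.12. The Rieske iron-sulphur protein Uqcrfs1 had 0.21 and -0.04.

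**Figure D2:**
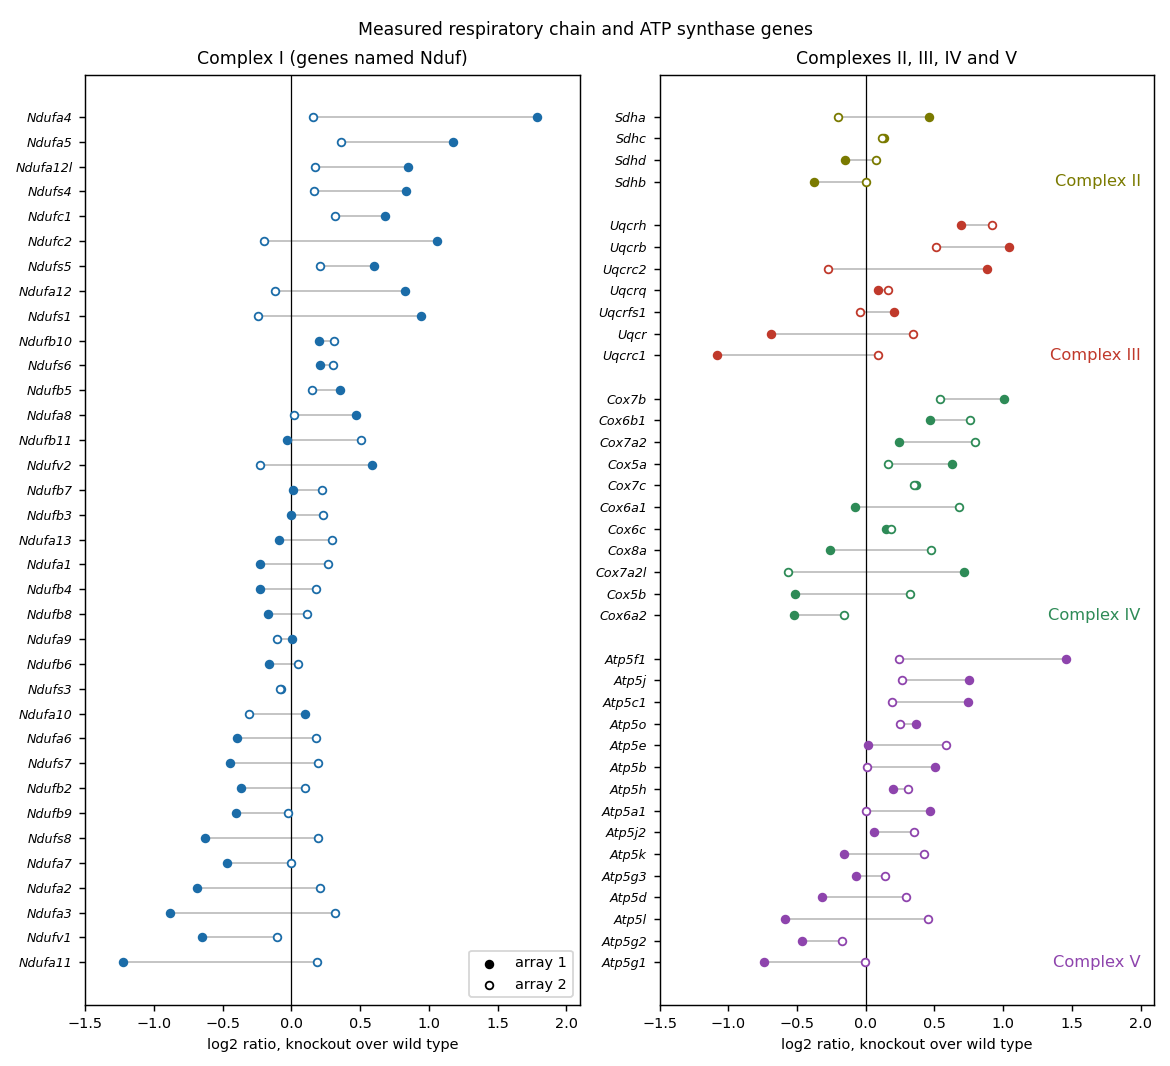
Log2 ratio of knockout over wild type of 72 of the 73 measured members on array 1 (filled) and array 2 (open), with complex I on the left and complexes II to V on the right, each ordered by the mean ratio. Lines join the arrays. Filled points run from -1.23 to 1.79 and open points from -0.57 to 0.92.

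Complex IV, cytochrome c oxidase, had the highest median of the complexes on array 2, but not under every setting. Its 11 measured genes, all nuclear-encoded subunits or relatives of them, had a median mean ratio of 0.30, with 0.24 on array 1 and 0.35 on array 2. The array 2 median was 0.19 without the filter on dim probes, and the median mean ratio was then 0.13. It was 0.12 without background subtraction and 0.17 with both channels required above background. Of these, 6 were above 0 and 1 below 0 on both arrays, and 9 were above 0 on array 2. Cox7b, an X-linked subunit, had 1.01 and 0.54. Its log2 signals were 13.86 and 14.45 in the knockout and 12.85 and 13.91 in wild type, so the wild-type sample of array 2 lay just above the knockout sample of array 1. The mean of 0.77 ± 0.33 (SD, n = 2) had an adjusted p of 0.478 (limma).

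Cox6b1, a subunit on the side of the intermembrane space, had 0.47 and 0.76. Its signals were 10.54 and 11.22 in the knockout and 10.07 and 10.46 in wild type, without overlap, and the wild-type signal of array 1 was not well above background. Its mean was 0.61 ± 0.20 (SD, n = 2; adjusted p = 0.631, limma). Cox7a2, the form of subunit VIIa found in most tissues, had 0.24 and 0.79, and a second probe gave 0.27 and 0.85. Cox5a, a subunit on the matrix side, had 0.63 and 0.16. These genes were higher in the knockout on both arrays but differed in which array gave the larger ratio. Cox7c had 0.37 and 0.35. Its wild-type signal passed the background threshold on neither array, so these ratios are not exact (95% interval of the mean from -0.51 to 1.23, adjusted p = 0.819, limma). Cox7a2l, which takes part in joining complexes into supercomplexes, had 0.72 on array 1 and -0.57 on array 2, the lowest value of any member on array 2.

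Several oxidase subunits exist as tissue forms. The common forms Cox6a1 and Cox8a had -0.08 and 0.68, and -0.26 and 0.47, so both were above 0 on array 2 only. The heart and muscle form Cox6a2 passed the filter, with -0.52 and -0.16, but was dim. Its raw signals were 1535 and 2765 in the knockout, where negative controls had medians of 985 and 1865. In wild type they were 1460 and 1680, against 1087 and 1120. The other 4 tissue forms in the set did not pass the filter. Cox7a1 of muscle was above background in both genotypes on array 1 only, with ratios of -0.01 and -0.21. Cox6b2 of testis was above background only in wild type on array 1, with -0.43 and -0.43. Cox8b and Cox8c were not above background in any sample. Of the remaining subunits, Cox6c had 0.15 and 0.18 and Cox5b had -0.52 and 0.32.

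ATP synthase had 15 measured genes and a median mean ratio of 0.24, with 0.06 on array 1 and 0.25 on array 2. Of these, 9 were above 0 and 2 below 0 on both arrays, and 13 were above 0 on array 2. Fewer were above 0 on both arrays without background subtraction (F1 and stalk genes given below). Atp5f1, now Atp5pb, is subunit b of the peripheral stalk that keeps the catalytic head from turning. It had 1.46 on array 1 and 0.24 on array 2. Its log2 signals were 14.95 and 14.44 in the knockout and 13.48 and 14.20 in wild type, without overlap. The mean of 0.85 ± 0.86 (SD, n = 2) had a 95% interval from -0.02 to 1.72 and an adjusted p of 0.400 (limma). A second, dimmer probe gave 0.84 and -0.10.

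The other stalk genes had lower ratios on array 1 and similar ones on array 2. Atp5j (subunit F6) had 0.75 and 0.26, Atp5o (the oligomycin sensitivity protein) had 0.37 and 0.25, and Atp5h (subunit d) had 0.20 and 0.30. All 4 stalk genes were above 0 on both arrays, with medians of 0.56 and 0.26. This also held with scanner-processed signals, median centring, the scanner software's log ratio and the mean of probes. Without background subtraction 3 of the 4 were above 0 on both. The remaining settings kept the same ratios or only rescaled each array, so these signs could not change there. The 5 genes of the catalytic F1 head had medians of 0.47 and 0.19, and 4 were above 0 on both arrays. That count was 1 without background subtraction, 1 with the software's log ratio and 2 with scanner-processed signals. It was 3 with the mean of probes and 5 with median centring. Within the head, Atp5c1 of the central shaft had 0.75 and 0.19, Atp5b of the catalytic sites had 0.50 and 0.01, and Atp5a1 had 0.47 and 0.003. The other 2 measured Atp5b probes gave 0.11 and -0.27, and 0.15 and -0.14. Atp5e, the small epsilon subunit of the shaft, had 0.02 and 0.58, the highest value of the complex on array 2, and Atp5d, the delta subunit, had -0.32 and 0.30.

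The genes of the rotating c ring stood apart from the stalk. Atp5g1, Atp5g2 and Atp5g3 encode the same mature subunit c and differ in their import sequences. Their ratios were -0.74 and -0.01 for Atp5g1, -0.46 and -0.17 for Atp5g2, and -0.07 and 0.14 for Atp5g3. A second Atp5g2 probe gave -1.05 and -0.11. All 3 were below 0 on array 1, and 2 of them on array 2, with medians of -0.46 and -0.01. The small membrane subunits Atp5j2 (0.06, 0.35), Atp5k (-0.16, 0.42) and Atp5l (-0.59, 0.45) were all above 0 on array 2. With median centring all 3 c ring genes were above 0 on both arrays. The median mean ratio of the c ring genes was at -0.35 relative to that of all genes in the values reported here and at 0.04 relative to it with median centring.

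**Figure D3:**
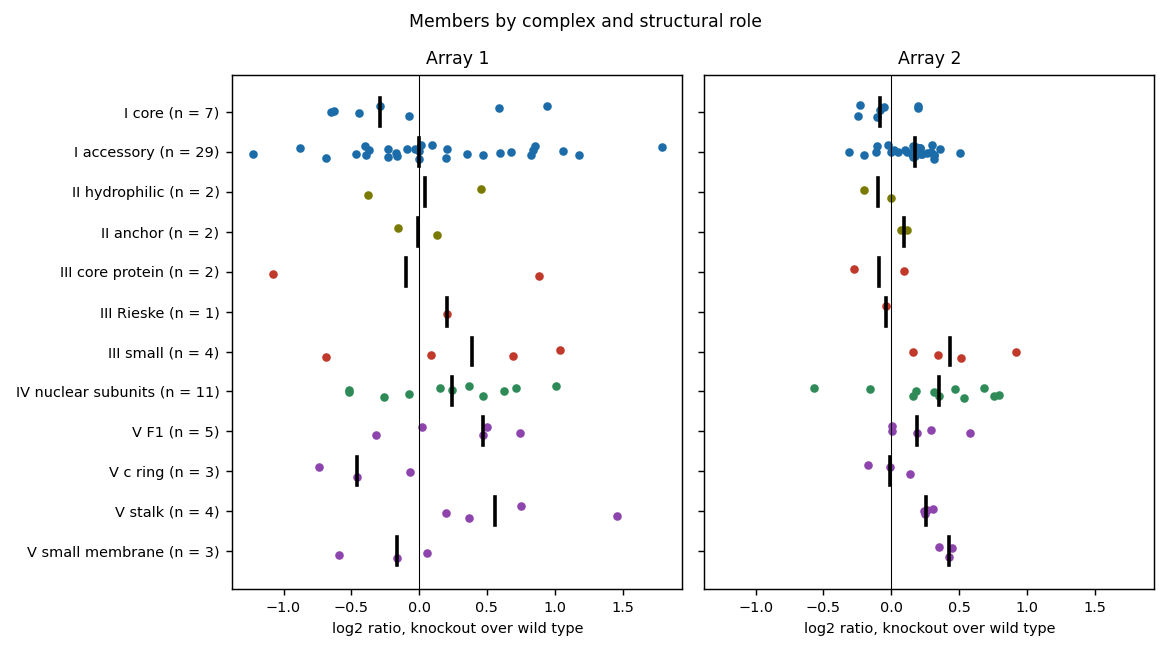
Log2 ratio of knockout over wild type on array 1 (left) and array 2 (right), with 1 point per measured member, grouped by complex and structural role, and black bars at group medians. The stalk group of complex V has medians of 0.56 and 0.26 and the core group of complex I has -0.29 and -0.08.

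For 16 members more than 1 probe was measured, which gives a check on single probes from the same libraries. The range between probes of a gene had a median of 0.17 in the mean ratio, 0.36 on array 1 and 0.08 on array 2. Uqcrh was the only gene whose probes differed by over 0.5 in the mean, by 0.73, and none differed by over 1. Probes of a gene thus lay closer together on array 2 than on array 1. The median SD between arrays was 0.33 over members and 0.38 over all genes.

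**Figure D4:**
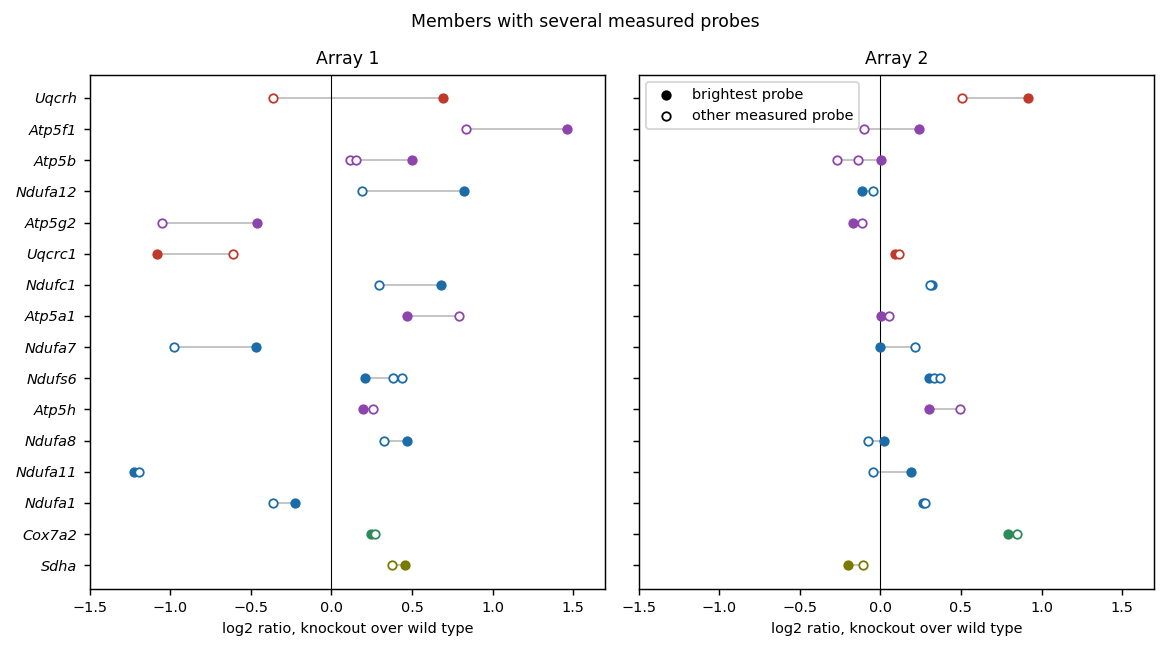
Log2 ratio of knockout over wild type on array 1 (left) and array 2 (right) for the 16 members with several measured probes, ordered by the range of the probes' means. Filled points are the brightest probe, which stands for the gene, and open points the others. The widest gap is that of Uqcrh on array 1, at 1.06, and the widest on array 2 is 0.41.

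The sexes of the mice are not in the labels, and 3 members are X-linked. The Y-linked genes Ddx3y and Eif2s3y were above background only in the knockout on array 1 (ratios of 2.30 and 1.99) and only in wild type on array 2 (-2.04 and -2.98). Of 4 probes for Xist, which is expressed from the inactive X, 3 passed the background threshold, and did so only for the knockout of array 2. Their ratios there ran from 1.57 to 6.90, against a wild-type signal under the background threshold, so they are not exact. Cox7b was above 0 on both arrays, while Ndufa1 (-0.23, 0.27) and Ndufb11 (-0.03, 0.51) were above 0 on array 2 only. The part of sex in these ratios was not tested.

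Other genes of oxidative metabolism were read from lists beside the members, and the genes named from them were chosen after their values were seen. Of 9 other electron transport genes, 0 were called by limma, 0 had an unadjusted p under 0.05, and their median mean ratio was 0.04. Cytochrome c itself (Cycs) had 1.01 and 0.32, cytochrome c1 (Cyc1) had -0.94 and -0.06, and Cox4i1, the subunit IV that the name rule missed, had 0.13 and -0.05. Of 3 mitochondrially encoded genes 1 was called by limma and all 3 had an unadjusted p under 0.05. The called gene was COX2, higher in the knockout with 3.29 and 1.01. The array design places its probe at mm8 chr1:24569175-24569234 and not on mitochondrial DNA. ND4L had 2.00 and 0.07 and CYTB had 1.85 and 0.09, so all 3 were higher on both arrays, far more on array 1.

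Of 15 measured assembly factors 0 were called by limma and 1 had an unadjusted p under 0.05. The copper chaperone Cox17 had -2.68 and 0.85 with its brightest probe and 0.02 and 0.65 with another. Of 13 genes of mitochondrial transcription and biogenesis, 1 was called by limma and 3 had an unadjusted p under 0.05. The called gene was Tfam, the packaging and transcription factor of mitochondrial DNA, lower in the knockout with -3.62 and -0.60. That call rests on 1 probe, since another measured Tfam probe gave 0.67 and -0.21. Nrf1 had -0.43 and -0.08, and Gabpa, a subunit of GABP, had 0.56 and 0.22. Yy1 was not called, with 2.87 and -0.13 from a probe whose wild-type signal on array 1 was under the background threshold, and 0.65 and 0.05 from a probe above background in all samples. Of 16 citric acid cycle genes 1 was called by limma and 2 had an unadjusted p under 0.05. The called gene was Dld, higher with 3.18 and 0.12, and a second measured probe of it gave 1.54 and 0.10. For both probes the wild-type signal of array 1 was not well above background, so the array 1 ratios that carry the call are not exact. Of 6 carriers and uncoupling proteins 0 were called by limma and 1 had an unadjusted p under 0.05.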

How the data were processed

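RNA of sorted cells was amplified linearly and labelled chemically, per the labels' protocols, and the submitters' processing notes name Agilent Feature Extraction 9.5.3.1. The authors' deposited scanner files give each spot's signal and local background as linear intensity, not normalised, and a log10 ratio of Cy5 over Cy3 made by the scanner software, per the file headers. The deposited value table matched that log10 ratio to within 0.005 and was not used further.

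Here, intensities were corrected with normexp (offset 50) and normalised by loess within arrays in limma 3.58.1 (R 4.3.3), with control and flagged spots at weight 0. All 105 member probes had 1 spot. Probes had to be well above background on both arrays in 1 and the same channel, and a gene was read from its brightest such probe. Genes are named as in the array files. All 77 members matched RefSeq, and 3 have another symbol there (Atp5f1, Uqcr and Ndufa12l). Probe positions are those of the array design (mm8). Channel levels are log2 signals after loess and Aquantile normalisation. Ratios against a channel not well above background are not exact.

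The two-sided test of the mean ratio used lmFit and eBayes, and p-values of 9283 genes were adjusted by Benjamini-Hochberg, with calls at 0.05. The fit was tested on simulated data in which both arrays had the same spread, unlike the real arrays. That test therefore does not give the error rate or power at the noise of these arrays. With 2 arrays, the fit pooled the spread between samples over all genes (prior degrees of freedom of 2065). The p-value of a gene therefore follows the size of its mean ratio and hardly the spread between its own samples. No mouse numbers are given. Negative control spots had medians of 985 (Cy5) and 1087 (Cy3) on array 1 and 1865 and 1120 on array 2. Of 43379 gene spots, 17276 (Cy5) and 10739 (Cy3) were well above background on array 1 and 10955 and 13446 on array 2. No spot of a measured member was saturated.

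The members, the gene lists and the tests were chosen with earlier results of these data known. Members named are, in each complex, up to 4 per direction whose sign both arrays share, by the size of the smaller ratio, the highest and lowest mean, those not above background in 1 genotype, and the tissue isoforms. Ndufs4, Ndufs1, Ndufc2, Cox5b, Cox6c, Atp5d, Atp5e, Atp5j2, Atp5k, Atp5l, Ndufv2, Ndufa7, Ndufa12l, Ndufa1, Ndufb11, Sdhd, Uqcr, Uqcrc2, Uqcrfs1, Atp5c1, Atp5b and Atp5a1 were named after their values were seen. Alternatives changed the background correction, normalisation, filter, probe choice, gene names and eBayes, and left out each array. For 1 complex I gene and some cell markers, values are not reported here.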

Additional observations from a re-analysis of the deposited data

How the results depend on the processing

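Under 11 other settings no member passed the test, and of 350 values of 32 named members 338 kept their sign. Many of these values could not change sign. Settings that altered only the filter, the gene names or the eBayes fit, or tested each probe, reused the same ratios of these members. The calls among all genes depended on the setting. They were 34 without background subtraction, 0 with scanner-processed signals, 0 with the scanner software's log ratio, 0 with ratios scaled between arrays, 0 without the filter, 38 with both channels required above background, 148 with the mean of probes, 31 with each probe tested, 138 with RefSeq names and 275 with trended robust eBayes, against 258. Median centring called 102 higher and 1 lower, against 221 and 37, and turned the signs of Ndufs3 (0.78), Ndufb9 (0.85), Ndufv1 (0.53), Ndufa11 (0.0078), Sdhb (0.65), Uqcrc1 (0.53), Atp5g2 (0.73) and Atp5g1 (0.48). Its medians were 1.07 for all members and 0.96, 0.72, 1.19, 1.14 and 1.27 for complexes I to V. It left 67 members above 0 and 1 below 0 on both arrays, and 7 over 2-fold on both. Without background subtraction the median of complex I turned sign, to -0.058, and those of complexes II, III and IV were 0.0020, 0.050 and 0.12. That setting left 22 members above 0 on both arrays, and Cox8a (-0.021) and Atp5g3 (-0.029) turned sign. With scanner-processed signals complexes II and III had 0.077 and 0.21, and with the software's log ratio 0.091 and 0.16. Both of these settings put 1 member, Cox6b1, over 2-fold on both arrays. Cox7a2l turned to -0.017 with the software's log ratio and to -0.088 with scaling. Complex IV had 0.13 without the filter and 0.17 with both channels required. The causes were not tested. With array 1 or array 2 left out, medians ranged from 0.061 to 0.18 for all members, -0.017 to 0.17 for complex I, -0.011 to 0.035 for II, 0.16 to 0.21 for III, 0.24 to 0.35 for IV and 0.061 to 0.25 for V. Counts over both arrays and calls could not be computed with 1 array. No paired analysis was possible because each array is 1 direct ratio and the arrays form 1 group. Intensities of dim genes lie near the negative controls, which limits their ratios.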
